A study of Homo sapiens with 16 samples.

Results

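The genes described here make serine from a glycolytic intermediate, move its one-carbon unit through folate and make asparagine. The set has 8 members, PHGDH, PSAT1, PSPH, SHMT1, SHMT2, MTHFD1, MTHFD2 and ASNS, grouped by this role in metabolism. Ribosome footprints, the mRNA fragments that ribosomes shield from nuclease, were counted on them in 4 established human cancer cell lines. Rocaglamide A (RocA), a plant compound that inhibits translation, was given for 30 min at 0.3 or 3 µM, and DMSO, its solvent, served as the control. NCI-H1650 and NCI-H520 came from lung cancer, and Hs 936.T and A375 from melanoma, and all are labelled WT in genetic background. Each line gave 1 library at 0.3 µM, 1 library at 3 µM and 2 DMSO libraries, 16 in all, so the 4 lines are the replicates of each dose. The deposited tables list transcripts by number and length only, so genes were named by matching the order of coding lengths along the genome to GENCODE 29. This named 19298 genes, among them all 8 members.

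Serine synthesis starts with PHGDH, which oxidises 3-phosphoglycerate, and goes on through the aminotransferase PSAT1 and the phosphatase PSPH. SHMT1 in the cytosol and SHMT2 in mitochondria split serine into glycine and a one-carbon unit on tetrahydrofolate. MTHFD2 in mitochondria and MTHFD1 in the cytosol interconvert the folate-bound unit, which feeds purine and thymidylate synthesis, while ASNS makes asparagine from aspartate with glutamine as the nitrogen donor. Several of these genes are known targets of ATF4, the transcription factor of the integrated stress response. RocA is known to lock eIF4A, the helicase that opens 5′ leaders for initiation, onto stretches of purines, and the title of the series names DDX3 as a further target.

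Because of that background, the longest run of purines (A or G, unbroken) in each annotated 5′ untranslated region (5′ UTR) is shown, as the files give no sequence. Sequences come from the GENCODE 29 transcript that stands for each gene on GRCh38, with the run in capitals within 30 bases of the transcript strand, and the transcript ends used in these cells were not measured. Transcripts of the same coding length number 2 for PHGDH, 3 for PSPH and 3 for ASNS. For these genes the first by identifier was taken, and the 5′ UTR of the others may differ. PHGDH had the longest run of the members and MTHFD2 the shortest. PHGDH, SHMT2, MTHFD2 and PSAT1 are shown for the genes that rose, PSPH for the gene that fell most and ASNS as the member outside the serine pathway.
PHGDH: ctgtAAGAGGAGGAGGAGGAGGAGAtgact
SHMT2: caagatagtAAGGAGAGGGGGcggcactgg
MTHFD2: cGGGGcctgccacgaggccgcagtataacc
PSAT1: ggccAGGAAcgccagccgttcacgcgttcg
PSPH: gtttttatctAGGGAAGGAAcagaagagtg
ASNS: gtcctgatctAGGAAGAGActgcggcctta

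The PHGDH run spans 21 bases at chr1:119711882-119711902 on the plus strand, within a 5′ UTR of 308 bases. It is longer than or equal to the longest run of 98.4% of the 9469 tested genes with an annotated 5′ UTR, whose median is 8 bases. SHMT2 has a run of 12 bases at chr12:57229480-57229491 (plus strand), PSPH of 10 at chr7:56031970-56031979 (minus strand) and ASNS of 9 at chr7:97871894-97871902 (minus strand). The runs of PSAT1, at chr9:78297147-78297151, and of MTHFD2, at chr2:74198563-74198566, both on the plus strand, have only 5 and 4 bases. MTHFD1 has 6 and SHMT1 has 5. A run is a description of letters, not a binding site.

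Members matched the annotation to different degrees. The transcript that stands for MTHFD2 (chr2:74198562-74217565, plus strand) has 341 codons counted, which is 10 fewer than its coding sequence holds with the stop codon, as in all entries. The other standing transcripts have 1011 codons for MTHFD1 (chr14:64388031-64463457, plus strand), 474 for SHMT1 (chr17:18327860-18363563, minus strand) and 495 for SHMT2 (chr12:57229327-57234935, plus strand). PHGDH has 524 (chr1:119648411-119744226, plus strand), PSAT1 361 (chr9:78297143-78330093, plus strand), PSPH 216 (chr7:56011051-56051604, minus strand) and ASNS 552 (chr7:97852118-97872542, minus strand). All coordinates are gene spans on GRCh38. For 7 members every annotated coding transcript had its entry in the files, from 2 of 2 for PSAT1 to 24 of 24 for SHMT2. PHGDH is the least certain name, because only 1 of its 21 annotated coding lengths had a matching entry.

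Depth set the precision. Libraries held 87634 to 1074473 footprints on named genes with RocA and 990000 to 5909553 with DMSO, and levels are given as CPM, counts scaled to library size, after TMM scaling. Each library is scaled to its own content, so a change is relative to other genes of that library. The totals of bulk libraries cannot tell a change in cell number from a change in footprints per cell over all genes, and no mRNA levels were used. NCI-H520 stands apart from its label in one respect. The median of 15 melanocyte genes there was 0.964% (0.3 µM) and 1.86% (3 µM) of the Hs 936.T DMSO level, against 3.92% and 8.77% in its DMSO libraries. In NCI-H1650 and A375 the highest value was 0.581%. In A375, labelled melanoma, 3 and 4 of the 15 melanocyte genes had no footprint with RocA, against 1 and 0 with DMSO. Its RocA libraries held fewer footprints on named genes, 648127 and 555703, against 3660255 and 5909553 with DMSO. The scaled median in A375 was 0.509% (0.3 µM) and 0.49% (3 µM), against 0.193% and 0.0786% with DMSO, so the zeros do not show a loss. The 10 epithelial genes summed to at least 3689 CPM in the lung libraries and at most 447.1 CPM in the melanoma libraries. Of the NCI-H520 libraries, 2 (3 µM and DMSO replicate 2) carry the cell-line label NCI-H521, and they were grouped by title.

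Footprints on PHGDH, PSAT1, SHMT2, MTHFD2 and ASNS rose with RocA at both doses, and those on PSPH and SHMT1 fell. MTHFD2 and PSAT1 rose most, by 2.71-fold and 2.56-fold at 0.3 µM, and PSPH fell most, 4.58-fold. At 0.3 µM 5 of 8 members rose, 2 fell and MTHFD1 did not pass, where 59.9% of the 9775 genes tested changed, 27.5% up and 32.4% down. At 3 µM 6 rose and 2 fell, where 57.0% of genes changed, 25.1% up and 31.9% down. The rise of MTHFD1 at 3 µM depends on the entry that stands for it, as given below. The members had a median log2 change of 0.607 at 0.3 µM and 0.506 at 3 µM, against -0.092 and -0.158 over all genes tested. A gene was called at an adjusted p under 0.05 in edgeR (quasi-likelihood, Benjamini-Hochberg over all tested genes). With the majority of genes called, a call alone sets no member apart from the rest.

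**Figure D1:**
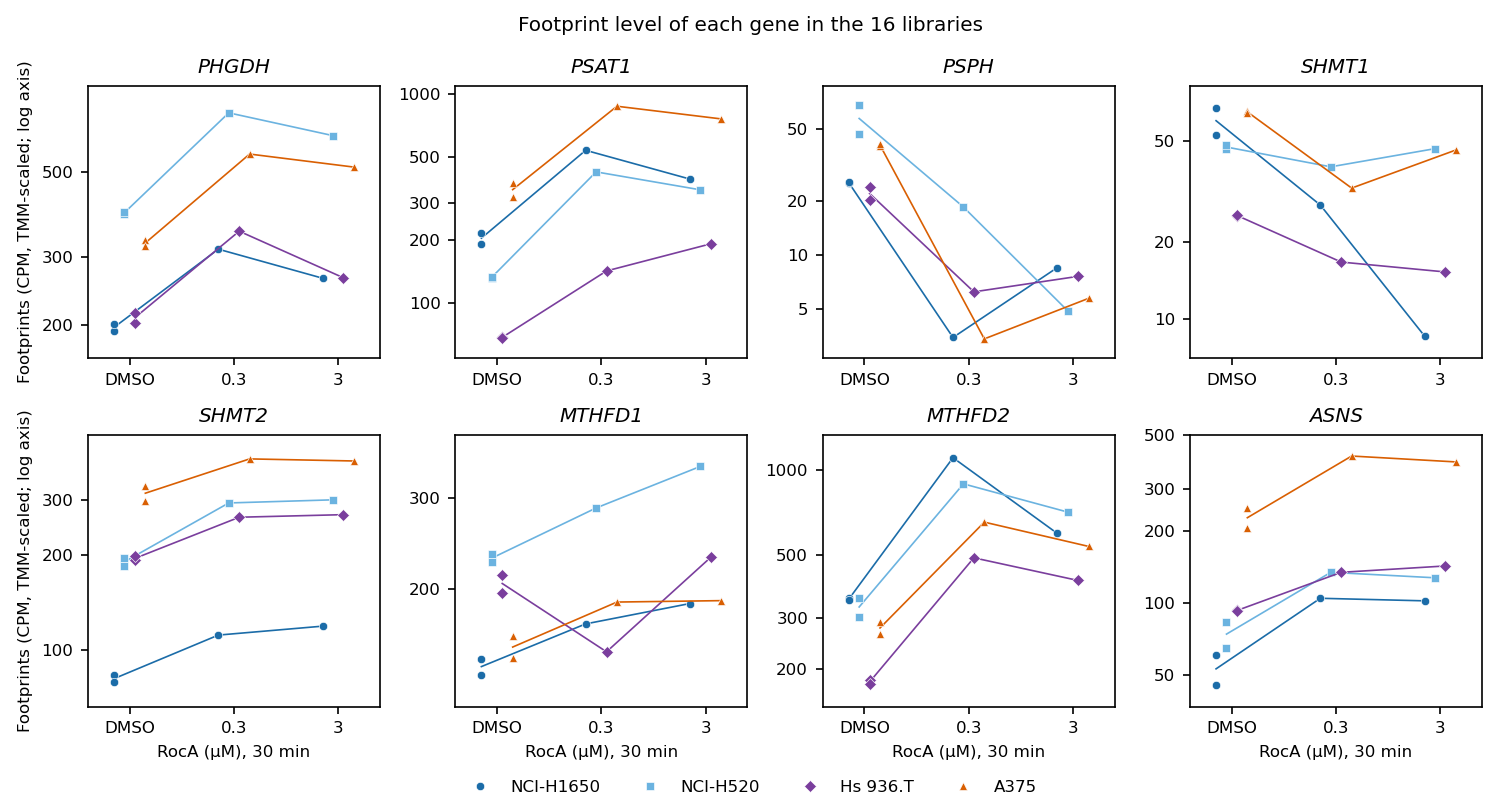
Footprint level of each member in the 16 libraries (CPM after TMM scaling, log axis) against treatment, with 1 point a library and lines joining each cell line's DMSO mean to its libraries at 0.3 and 3 µM. PHGDH, PSAT1, SHMT2, MTHFD2 and ASNS lie above both DMSO libraries of the same line in all 4 lines at both doses, and PSPH lies below them.

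In the serine branch, PHGDH commits 3-phosphoglycerate to the pathway. At 0.3 µM PHGDH stood at 315 CPM in NCI-H1650, 712 in NCI-H520, 350.3 in Hs 936.T, with 556 in A375. At 3 µM PHGDH stood at 264, 621, 265 and 514 CPM in the same order. DMSO libraries held 192 and 201 CPM in NCI-H1650, 389 and 394 in NCI-H520, 203 and 215 in Hs 936.T, and 333 and 320.4 in A375. Every RocA library was above both DMSO libraries of its line, and the value at 3 µM was below that at 0.3 µM in each line. PHGDH rose by a log2 change of 0.76 ± 0.10 (SE) at 0.3 µM and 0.54 ± 0.11 at 3 µM, with adjusted p = 1.9e-08 and 4.2e-05 (edgeR quasi-likelihood, Benjamini-Hochberg adjusted). The lines were close to each other at 0.3 µM, from 0.67 in NCI-H1650 to 0.86 in NCI-H520.

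PSAT1, which transfers an amino group from glutamate to the product of PHGDH, had a larger log2 change than PHGDH. At 0.3 µM PSAT1 stood at 538 CPM in NCI-H1650, 424 in NCI-H520, 143 in Hs 936.T, with 874 in A375. At 3 µM PSAT1 stood at 392, 348 (NCI-H520), 193 and 760.0 CPM in the same order. DMSO libraries held 217 and 192 CPM in NCI-H1650, 133 and 134 in NCI-H520, 69.2 and 68.5 in Hs 936.T, and 377 and 321 in A375. Groups did not overlap within any line, although A375 in DMSO was higher than Hs 936.T with RocA. The fitted log2 change was 1.35 ± 0.11 (SE) at 0.3 µM and 1.23 ± 0.12 at 3 µM, with adjusted p = 1.1e-13 and 1.2e-11 (edgeR quasi-likelihood, Benjamini-Hochberg adjusted). Hs 936.T was the line in which the level at 3 µM exceeded that at 0.3 µM.

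PSPH, the phosphatase that releases free serine, went the other way. It had 1 footprint in NCI-H1650, 7 in NCI-H520, 6 in Hs 936.T, with 2 in A375 at 0.3 µM, and 1, 2, 4 and 3 at 3 µM. The DMSO libraries held 30 and 30 footprints in NCI-H1650, 77 and 64 in NCI-H520, 95 and 97 in Hs 936.T, and 158 and 268 in A375. After scaling, the RocA libraries lay between 3.43 and 18.5 CPM and the DMSO libraries between 20.1 and 67.7 CPM. PSPH was below both DMSO libraries in each line, as were 26.9% of genes tested at 0.3 µM and 28.0% at 3 µM. The fit gave a log2 change of -2.19 ± 0.31 (SE) at 0.3 µM and -2.54 ± 0.37 at 3 µM, with adjusted p = 1.2e-07 and 2.3e-07 (edgeR quasi-likelihood, Benjamini-Hochberg adjusted). This rests on 16 footprints at 0.3 µM and 10 at 3 µM over the 4 lines. In A375 PSPH was 11.9-fold lower at 0.3 µM with a 95% counting interval of 3.27 to 98.4, and 7.08-fold lower at 3 µM with an interval of 2.41 to 34.5. In NCI-H520 at 3 µM it was 11.4-fold lower, with an interval of 3.11 to 95.3, and the interval of NCI-H1650 at 3 µM (0.510 to 119 on a ratio of 2.95) includes no change. Intervals cover counting error only, since no molecular identifiers are stated. PSPH also has the pseudogene copy PSPHP1, and how the authors counted reads that match more than 1 place was not given in the sources used here.

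The SHMT paralogs, which catalyse the same reaction in different compartments, moved in opposite directions. SHMT2, the mitochondrial enzyme, stood at 112 CPM in NCI-H1650, 293 in NCI-H520, 264 in Hs 936.T, with 403 in A375 at 0.3 µM. At 3 µM SHMT2 stood at 119, 299, 269 and 397 CPM in the same order. DMSO libraries held 83.6 and 79.2 CPM in NCI-H1650, 196 and 186 in NCI-H520, 193 and 198 in Hs 936.T, and 332 and 297 in A375. Each RocA library was above both of its DMSO libraries, by a modest margin and to nearly the same level at both doses. The log2 change was 0.45 ± 0.11 (SE) at 0.3 µM and 0.47 ± 0.11 at 3 µM, with adjusted p = 3.2e-04 and 3.9e-04 (edgeR quasi-likelihood, Benjamini-Hochberg adjusted). Scaling libraries to their totals without TMM, which puts the median of all genes at -0.344 for 0.3 µM and -0.374 for 3 µM, gave 0.18 (adjusted p = 0.11) and 0.23 (adjusted p = 0.056) in the same test, so these calls end there.

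SHMT1, the cytosolic enzyme, had few footprints with RocA. At 0.3 µM SHMT1 stood at 28.0 CPM in NCI-H1650, 39.5 in NCI-H520, 16.7 in Hs 936.T, with 32.6 in A375. At 3 µM SHMT1 stood at 8.53, 46.6, 15.2 and 46.1 CPM in the same order, the first of them from 1 footprint (7.04-fold lower, counting interval 1.24 to 280.1). DMSO libraries held 52.7 and 67.4 CPM in NCI-H1650, 46.6 and 48.0 in NCI-H520, 25.4 and 25.5 in Hs 936.T, and 65.8 and 64.4 in A375. SHMT1 was below both DMSO libraries in all 4 lines at 0.3 µM and in 3 lines at 3 µM, the exception being NCI-H520, where the levels overlapped. The log2 change was -0.75 ± 0.20 (SE) at 0.3 µM and -0.53 ± 0.22 at 3 µM, with adjusted p = 1.7e-03 and 0.037 (edgeR quasi-likelihood, Benjamini-Hochberg adjusted). The call at 3 µM ended without the 3 µM library of NCI-H1650 (-0.41), Hs 936.T (-0.49) or A375 (-0.58), without DMSO replicate 1 of A375 (-0.52), and without the whole line NCI-H1650 (-0.41), Hs 936.T (-0.49) or A375 (-0.56). After thinning each line to the depth of its smallest library, the values were -0.44 at 0.3 µM (adjusted p = 0.16) and -0.29 at 3 µM (adjusted p = 0.34) in the same test, so both calls are lost at that depth.

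MTHFD2, the mitochondrial dehydrogenase and cyclohydrolase, had the largest rise of the members at 0.3 µM, and PSAT1 at 3 µM. At 0.3 µM MTHFD2 stood at 1101 CPM in NCI-H1650, 891 in NCI-H520, 490.0 in Hs 936.T, with 654 in A375. At 3 µM MTHFD2 stood at 597, 709, 408 and 537 CPM in the same order. DMSO libraries held 354 and 347 CPM in NCI-H1650, 355 and 303 in NCI-H520, 182 and 177 in Hs 936.T, and 292 and 264 in A375. Each RocA library exceeded both DMSO libraries of its line, as in 21.5% of genes tested at 0.3 µM and 17.1% at 3 µM. The value at 3 µM was below that at 0.3 µM in each line. The log2 change was 1.44 ± 0.10 (SE) at 0.3 µM and 1.02 ± 0.11 at 3 µM, with adjusted p = 3.0e-15 and 1.7e-10 (edgeR quasi-likelihood, Benjamini-Hochberg adjusted). Its change at 0.3 µM was larger than that of 96.0% of the genes tested.

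MTHFD1, the cytosolic enzyme with 3 activities on folate, changed least. At 0.3 µM MTHFD1 stood at 171 CPM in NCI-H1650, 287 in NCI-H520, 151 in Hs 936.T, with 189 in A375. At 3 µM MTHFD1 stood at 188, 346, 231 and 190.0 CPM in the same order. DMSO libraries held 136 and 147 CPM in NCI-H1650, 226 and 234 in NCI-H520, 213 and 197 in Hs 936.T, and 147 and 162 in A375. RocA was above both DMSO libraries in 3 lines at 0.3 µM and in all 4 at 3 µM, and Hs 936.T at 0.3 µM was below both. The log2 change was 0.07 ± 0.12 (SE) at 0.3 µM and 0.35 ± 0.12 at 3 µM, with adjusted p = 0.61 and 0.014 (edgeR quasi-likelihood, Benjamini-Hochberg adjusted). The call at 3 µM depended on the transcript that stands for the gene. Its 926-codon entry starts 56 codons later and ends in another coding exon, of 30 codons with the stop in place of 59. By that entry the change was -0.21 ± 0.12 at 0.3 µM (adjusted p = 0.13) and -0.01 ± 0.13 at 3 µM (adjusted p = 0.95) in the same test. The longer entry held 413 footprints at 0.3 µM and 383 at 3 µM, against 4358 in DMSO, and the shorter held 349 and 302, against 4418. The longer was chosen for its sum over all 16 libraries, 5154 against 5069. It led only with RocA, so the choice rests on RocA counts that the test itself uses. The longer entry held more footprints than the shorter in all 4 lines with RocA, by 8.28% to 25.3% of its own, and fewer in all 4 with DMSO. As the entries differ at both ends, this net difference is not a count of footprints at the start. The call at 3 µM also ended without the 3 µM library of NCI-H520 (0.27), without that line (0.30), without the libraries labelled NCI-H521 (0.24), with no filter on low counts (0.18) and with no TMM (0.12).

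ASNS, asparagine synthetase, was higher in every line. At 0.3 µM ASNS stood at 105 CPM in NCI-H1650, 134 in NCI-H520, 134 in Hs 936.T, with 410.2 in A375. At 3 µM ASNS stood at 102, 128, 143 and 388 CPM in the same order. DMSO libraries held 61.1 and 45.5 CPM in NCI-H1650, 65.1 and 83.7 in NCI-H520, 93.7 and 92.8 in Hs 936.T, and 249 and 205 in A375. Each RocA library was above both DMSO libraries of its line, with Hs 936.T closest to them. The log2 change was 0.76 ± 0.12 (SE) at 0.3 µM and 0.74 ± 0.13 at 3 µM, with adjusted p = 8.6e-07 and 6.8e-06 (edgeR quasi-likelihood, Benjamini-Hochberg adjusted).

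**Figure D2:**
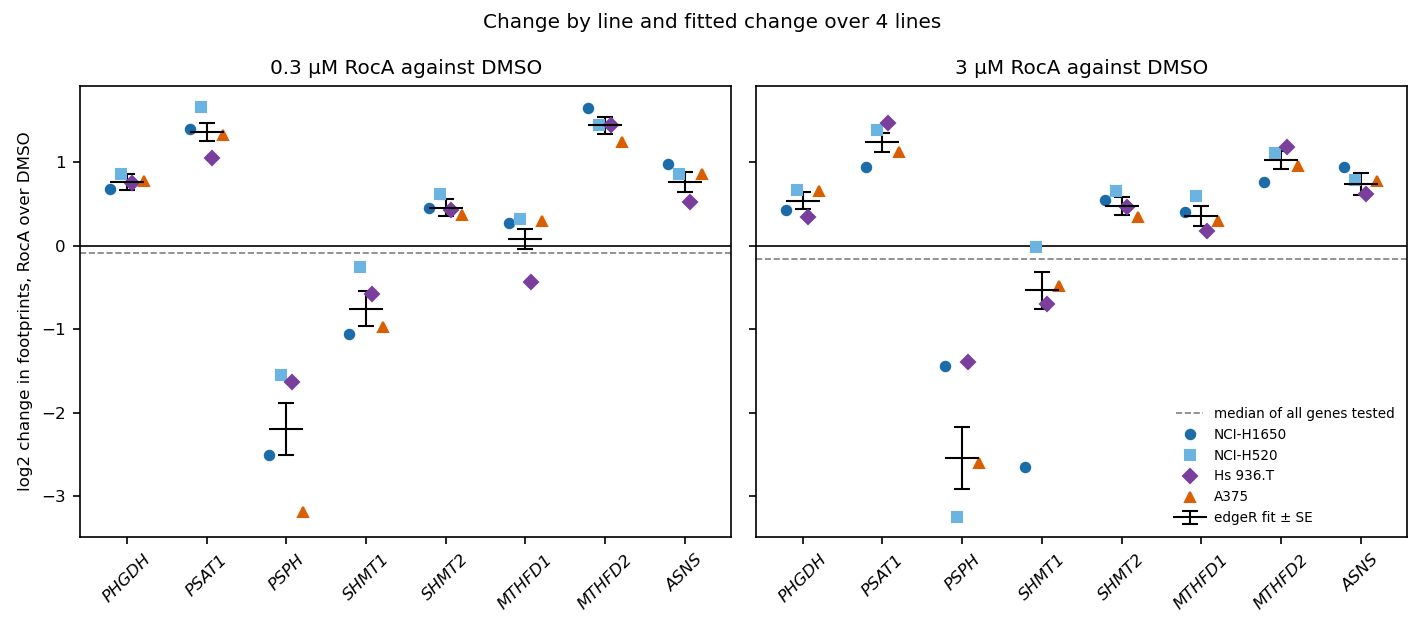
Log2 change in footprints, RocA over DMSO, for each member at 0.3 µM (left) and 3 µM (right), with 1 coloured point a line, black bars for the edgeR fit over 4 lines with its SE, and a dashed line at the median of all genes tested. MTHFD2 and PSAT1 are highest and PSPH lowest at both doses, and MTHFD1 lies nearest to 0 at 0.3 µM.

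Line by line, PHGDH, PSAT1, SHMT2, MTHFD2 and ASNS exceeded both DMSO libraries in all 4 lines at 0.3 µM, a pattern held by 21.5% of genes tested. At 3 µM the same genes and, by its 1011-codon entry, MTHFD1 did so, against 17.1% of genes. PSPH and SHMT1 were below both DMSO libraries in all 4 lines at 0.3 µM, against 26.9% of genes, and PSPH at 3 µM, against 28.0%. Melanocyte genes differed among the libraries of NCI-H520, between its DMSO libraries as well, as given above, and the cause was not tested. Without that line the log2 changes at 0.3 and 3 µM were 1.44 and 1.02 for MTHFD2, 1.26 and 1.22 for PSAT1, 0.74 and 0.52 for PHGDH, 0.41 and 0.45 for SHMT2 and 0.75 and 0.76 for ASNS. PSPH gave -2.51 and -2.11 and SHMT1 -0.89 and -0.71. All of these values passed the test, as did the values of these genes without the libraries labelled NCI-H521, where MTHFD2 gave 1.35 and 0.97, PSAT1 1.27 and 1.20 and PSPH -2.38 and -2.19.

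No member was called between the doses in edgeR, where 3.30% of genes were, and 1 of 8, MTHFD2, had an unadjusted p under 0.05. MTHFD2, 3 µM against 0.3 µM, stood at a log2 difference of -0.42 ± 0.13 (SE) with adjusted p = 0.058 (edgeR quasi-likelihood, Benjamini-Hochberg adjusted). DESeq2 called that difference, and none of the 6 others it gave an adjusted p (PSPH had none), at -0.36 with adjusted p = 0.011. PHGDH followed at -0.22 ± 0.12 and MTHFD1 at 0.28 ± 0.15, while ASNS (-0.03 ± 0.15) and SHMT2 (0.02 ± 0.13) were near 0. SHMT1, at 0.22 ± 0.30, and PSPH, at -0.34 ± 0.61, had errors too wide to place the doses in order. PSAT1 stood at -0.12 ± 0.14.

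The response was not found to differ between lines for any member, where 2.85% of genes differed over the 4 lines and 0.675% between lung and melanoma lines. Each line had a single response shared by both doses, so its libraries at 0.3 and 3 µM served as replicates. A dose effect that differs between lines counts as error in this test. MTHFD1 alone had an unadjusted p under 0.05, over the 4 lines, and DESeq2 called no member in either (it gave PSPH no adjusted p for lung against melanoma). Adjusted p over the 4 lines was lowest for MTHFD1, at 0.23, and highest for PHGDH and MTHFD2, at 0.87 (edgeR quasi-likelihood, Benjamini-Hochberg adjusted). The response of the lung lines less that of the melanoma lines was 0.33 ± 0.17 (SE) for MTHFD1 on the log2 scale, 0.19 ± 0.20 for ASNS, 0.16 ± 0.17 for SHMT2 and 0.14 ± 0.16 for PSAT1. It was 0.08 ± 0.14 for MTHFD2 and 0.02 ± 0.15 for PHGDH. SHMT1 and PSPH, at -0.09 ± 0.36 and 0.10 ± 0.72, could not be resolved at their counts. These errors leave room for differences of the size of the smaller responses.

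Where along the coding sequence the footprints lay could be read for the members with an annotated short transcript that is the start of the standing one. This readout was chosen after nested entries had been seen to differ. Lengths here include the 10 codons that the count of each entry leaves out, so shares of footprints and of length match only roughly. Codons left out at the end of a short entry would fall in the rest. In MTHFD1 the first 261 of 1021 codons held 48.7% of footprints at 0.3 µM (95% exact interval 43.8 to 53.6) and 56.9% at 3 µM (51.8 to 61.9), against 25.1% in DMSO (23.8 to 26.4), over pooled lines. Of these codons 56 lie before the start of the shorter entry. Which start codon the cells use was not tested, so footprints there may lie in the 5′ UTR. In SHMT2 the first 172 of 505 codons held 49.5% at 0.3 µM (45.5 to 53.4) and 65.9% at 3 µM (61.5 to 70.1), against 31.1% in DMSO (29.9 to 32.3). Both shares were higher with RocA in 4 of 4 lines at both doses, which is the most that 4 lines can show (smallest two-sided exact p of 0.125). The intervals of pooled shares cover counting error only, and deeper lines weigh more. They leave out the spread between lines, from 40.9% in NCI-H1650 to 61.2% in Hs 936.T for MTHFD1 at 3 µM.

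ASNS shifted less than MTHFD1 and SHMT2. Its first 162 of 562 codons held 37.9% at 0.3 µM and 39.6% at 3 µM, against 27.3% in DMSO, and NCI-H520 at 0.3 µM went the other way (23.5% against 29.1%). The first 33 codons of ASNS alone, of which 23 were counted, held 11.8% at 0.3 µM (8.97 to 15.15) and 13.8% at 3 µM (10.3 to 17.9), against 2.55% in DMSO (2.05 to 3.13). That share was higher with RocA in each line, though in NCI-H1650 at 3 µM it was 1 of 12 footprints. ASNS has several start entries, and no share over other genes was taken for parts under 10% of the length. In SHMT1 the first 167 of 484 codons held 24 of 58 footprints at 0.3 µM and 29 of 52 at 3 µM, against 415 of 1164 in DMSO, and the lines were split at 0.3 µM. In PSPH the first 47 of 226 codons held 11 of 16 and 4 of 10 footprints, against 203 of 819 in DMSO. No such entry exists for MTHFD2, PHGDH or PSAT1, the members with the largest rises beside ASNS.

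**Figure D3:**
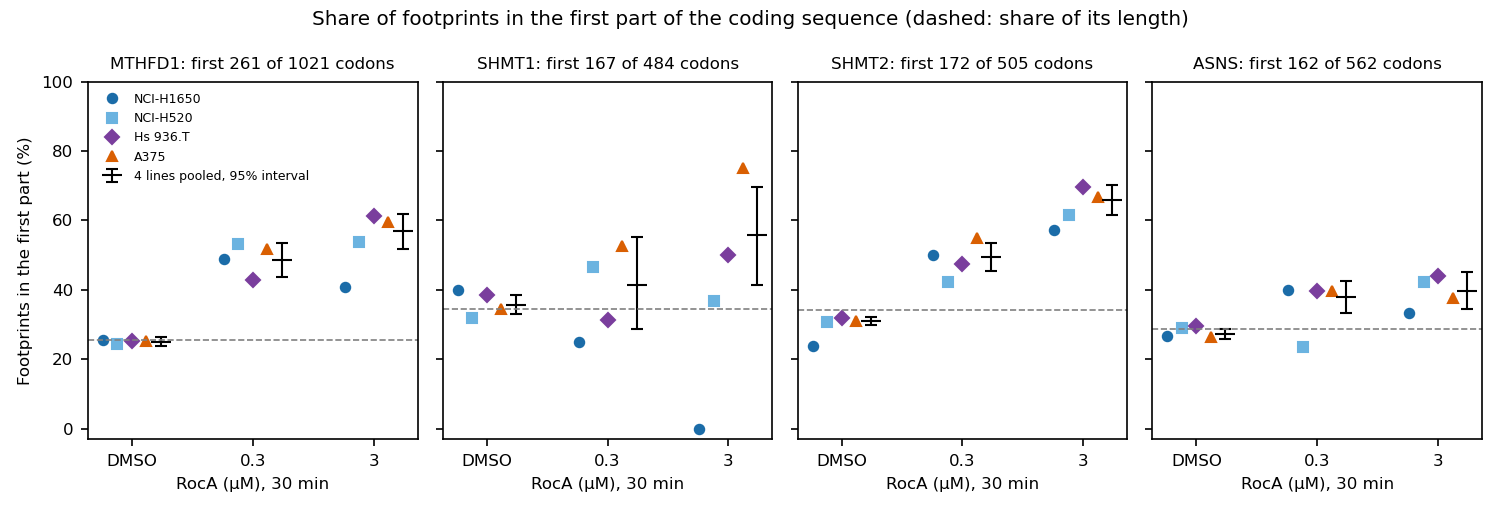
Share of footprints (%) in the first part of the coding sequence against treatment, for the members with a transcript entry that marks it. Coloured points are lines, and black bars the 4 lines pooled with exact 95% intervals, which cover counting error only. The dashed line is the share of codons in that part, including the 10 codons that each count leaves out. The SHMT1 point at 0% (NCI-H1650, 3 µM) rests on 1 footprint. In MTHFD1 and SHMT2 the pooled share reached 56.9% and 65.9% at 3 µM, against 25.1% and 31.1% in DMSO.

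A higher share at the start was general. Over 646 genes with such an entry, 91.6% had a higher share at 0.3 µM and 93.5% at 3 µM, with medians of 42.1% and 49.6%, against 29.5% in DMSO. The gain of MTHFD1 was at or above that of 89.0% of those genes at 0.3 µM and 88.1% at 3 µM, that of SHMT2 78.3% and 90.6%, and that of ASNS 50% and 31.1%. SHMT1 lay at 28.2% and 58.7%.

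The changes of whole genes therefore joined unlike parts. With the lines weighted equally, the first part of MTHFD1 had log2 changes of 1.12 at 0.3 µM and 1.50 at 3 µM, and the rest -0.46 and -0.33. That first part includes the 56 codons before the start of its shorter entry. For SHMT2 the first part changed by 1.15 and 1.57 and the rest by 0.01 and -0.51. ASNS was higher in both parts, at 1.24 and 1.28 in the first 162 codons and 0.62 and 0.53 in the rest. For SHMT1 the values were -0.58 and -0.26 in the first part and -0.88 and -1.15 in the rest. The rest was lower in all 4 lines at both doses, while the first part was higher in NCI-H520 at 0.3 µM (0.29) and at 3 µM (0.18) and in A375 at 3 µM (0.63), and held 0 footprints in NCI-H1650 at 3 µM. Over the genes with such an entry the median change was 0.58 and 0.72 for the first part and -0.39 and -0.55 for the rest. These are values without a test. Of the members that rose and have a start entry, ASNS is the one with higher values beyond its first part at both doses. MTHFD2, PHGDH and PSAT1 have no start entry and were not split.

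Under DMSO the members had distinct levels in the 4 lines, and no line was highest or lowest for all of them. Per coding length, MTHFD2 was the most read member in NCI-H1650, NCI-H520 and Hs 936.T and PSAT1 in A375, and SHMT1 was the least read in all but NCI-H1650, where ASNS was. Between Hs 936.T and A375 all 8 members differed, where 64.3% of the 12151 genes tested did, and 7 were lower in Hs 936.T (33.1% of genes). Between the lung lines 6 of 8 differed (59.1% of genes), 5 of them lower in NCI-H1650 (28.8%). Between lung and melanoma lines MTHFD2 and SHMT1 were higher and SHMT2 and ASNS lower in the lung lines, where 60.3% of genes were called, 28.6% higher and 31.6% lower. The error of this test comes from DMSO libraries of the same line, so it does not measure the spread between lines of a tissue. SHMT2 did not differ between NCI-H520 and Hs 936.T, and SHMT1 was highest in A375 (65.1 CPM) and lowest in Hs 936.T (25.5 CPM). The SHMT1 difference (0.33, adjusted p = 0.014 in edgeR) lost its call without DMSO replicate 2 of NCI-H1650 (0.23, adjusted p = 0.14) or of NCI-H520, the one labelled NCI-H521 (0.31, adjusted p = 0.062). NCI-H1650 differed from Hs 936.T and from A375 in 6 members each (69.2% and 64.1% of genes), and NCI-H520 in 6 members from Hs 936.T (59.3%) and in 8 from A375 (56.6%).

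PSAT1 spread most. It stood at 205 ± 17.9 CPM (SD, n = 2 here and below) in NCI-H1650, 133 ± 0.79 in NCI-H520, 68.8 ± 0.48 in Hs 936.T, with 349 ± 39.4 in A375. Neighbours in the order of these levels all differed, and Hs 936.T was 4.90-fold lower than A375 (log2 difference -2.29 ± 0.10 SE). PHGDH stood at 197 ± 6.42 CPM in NCI-H1650, 392 ± 2.93 in NCI-H520, 209 ± 8.59 in Hs 936.T, with 326 ± 8.60 in A375. NCI-H1650 and Hs 936.T could not be told apart for PHGDH (-0.17 ± 0.10). PSPH stood at 25.2 ± 0.14 CPM in NCI-H1650, 57.1 ± 14.9 in NCI-H520, 21.9 ± 2.63 in Hs 936.T, with 40.6 ± 0.94 in A375, and NCI-H1650 and Hs 936.T again did not differ (0.11 ± 0.23). The 3 enzymes of serine synthesis thus had different leading lines, NCI-H520 for PHGDH and PSPH and A375 for PSAT1.

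SHMT2 stood at 81.4 ± 3.12 CPM in NCI-H1650, 191 ± 7.44 in NCI-H520, 195 ± 3.99 in Hs 936.T, with 314 ± 24.5 in A375. NCI-H1650 was 3.98-fold lower than A375, and NCI-H520 and Hs 936.T did not differ (-0.10 ± 0.10). SHMT1 stood at 60.1 ± 10.4 CPM in NCI-H1650, 47.3 ± 1.01 in NCI-H520, 25.5 ± 0.10 in Hs 936.T, with 65.1 ± 0.97 in A375. Hs 936.T was the low line for SHMT1, and NCI-H1650 did not differ from A375 (-0.16 ± 0.15) or NCI-H520 (0.32 ± 0.19).

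MTHFD2 stood at 351 ± 4.62 CPM in NCI-H1650, 329 ± 36.6 in NCI-H520, 180 ± 3.31 in Hs 936.T, with 278 ± 19.4 in A375, and the lung lines did not differ (0.07 ± 0.10). MTHFD1 stood at 142 ± 7.30 CPM in NCI-H1650, 230 ± 5.37 in NCI-H520, 205 ± 11.7 in Hs 936.T, with 154 ± 10.6 in A375. For MTHFD1 NCI-H520 did not differ from Hs 936.T (0.10 ± 0.10), nor NCI-H1650 from A375 (-0.18 ± 0.11). ASNS stood at 53.3 ± 11 CPM in NCI-H1650, 74.4 ± 13.2 in NCI-H520, 93.2 ± 0.65 in Hs 936.T, with 227 ± 30.5 in A375. NCI-H1650 was 4.38-fold lower than A375 for ASNS. The smaller steps of ASNS, NCI-H1650 against NCI-H520 (-0.52 ± 0.19, adjusted p = 0.018, edgeR quasi-likelihood with Benjamini-Hochberg) and NCI-H520 against Hs 936.T (-0.38 ± 0.15, adjusted p = 0.024), were lost in several alternatives. So were those of MTHFD2, PHGDH, SHMT1 and PSPH between NCI-H520 and A375.

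**Figure D4:**
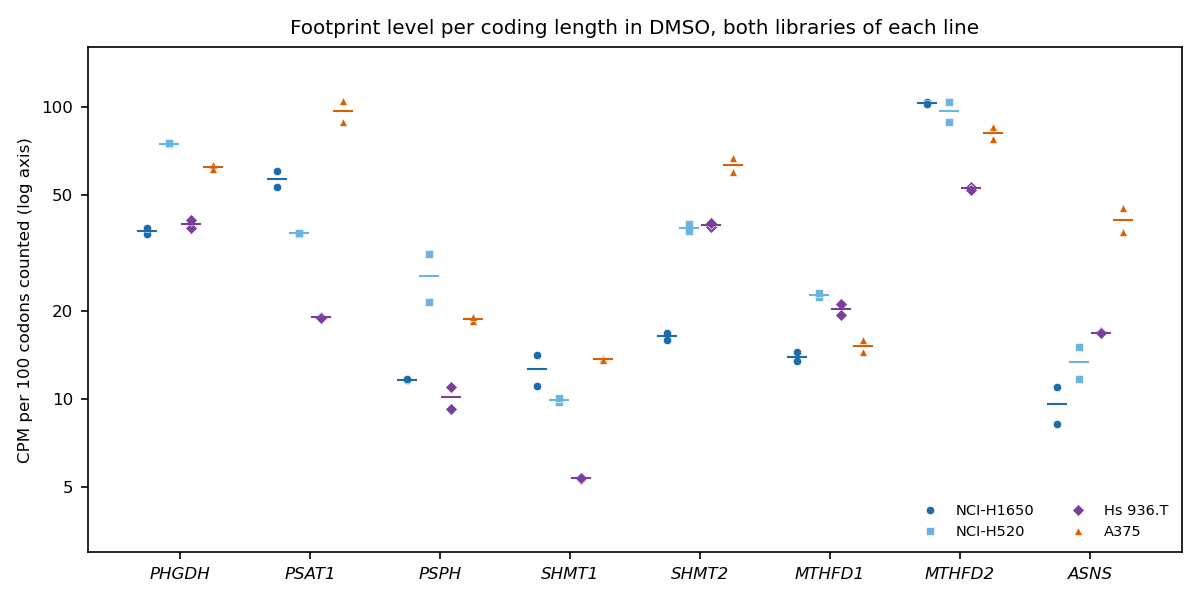
Footprint level in DMSO per 100 codons counted (CPM, log axis) for each member and line, with both DMSO libraries as points and their mean as a bar. PSAT1 ranges from 19.1 in Hs 936.T to 96.7 in A375, MTHFD2 from 52.6 in Hs 936.T to 103 in NCI-H1650, and SHMT1 from 5.37 in Hs 936.T to 13.7 in A375.

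The other genes of the surrounding pathways gave mixed directions with RocA. Of 17 tested genes of one-carbon and folate metabolism, 8 rose and 2 fell at 0.3 µM and 7 rose and 2 fell at 3 µM, with a median log2 change of 0.313 and 0.289. Over all genes tested, 27.5% rose and 32.4% fell at 0.3 µM, 25.1% rose and 31.9% fell at 3 µM, and the medians were -0.092 and -0.158, which apply to each list that follows. MTFMT, which formylates mitochondrial initiator methionyl-tRNA, rose by 1.33 ± 0.18 (SE) at 0.3 µM, ALDH1L2, a mitochondrial formyl-folate dehydrogenase, by 1.19 ± 0.22 and MTRR, methionine synthase reductase, by 1.11 ± 0.15. MTR, methionine synthase itself, fell by 1.04 ± 0.18 and DLD, a subunit shared by the glycine cleavage system, by 1.86 ± 0.19. Thus the partners MTR and MTRR moved in opposite directions, and at 3 µM they stood at -1.73 and 1.40.

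Of 12 purine synthesis genes, which draw on folate-bound one-carbon units, 6 rose and 4 fell at 0.3 µM and 5 rose and 4 fell at 3 µM. PFAS (1.61 ± 0.14), ATIC (1.55 ± 0.10) and GMPS (0.88 ± 0.10), enzymes of later steps, rose at 0.3 µM. PRPS1 (-1.56 ± 0.18), which makes the ribose donor, and PPAT (-1.45 ± 0.22), the committed step, fell. Under DMSO all 12 were lower in NCI-H1650 when set against NCI-H520 (28.8% of all genes tested) and against Hs 936.T (34.0%), and 10 when set against A375 (32.1%). Of 7 genes of the methionine cycle and transsulfuration 2 rose and 2 fell at each dose, among them CTH (1.30 ± 0.26) and AHCYL1 (-1.10 ± 0.16) at 0.3 µM.

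Of 15 other genes of amino acid synthesis, 7 rose and 5 fell at 0.3 µM and 4 rose and 5 fell at 3 µM. The aminotransferases BCAT2 (1.43 ± 0.15), OAT (1.15 ± 0.10) and GOT2 (1.0 ± 0.10) rose at 0.3 µM, and GLUL (-1.30 ± 0.20), which makes glutamine, fell. Of 25 further genes of the ATF4 program, 4 rose and 10 fell at 0.3 µM and 4 rose and 12 fell at 3 µM, with a median of -0.079 and -0.25. Those that rose include the tRNA synthetases GARS1 (1.13 ± 0.10) and EPRS1 (0.70 ± 0.11) and ATF4 itself (0.82 ± 0.20). The amino acid transporters SLC7A11 (-2.22 ± 0.20), SLC1A5 (-1.98 ± 0.20) and SLC38A2 (-1.23 ± 0.14) fell at 0.3 µM. The members that rose thus stand beside other ATF4 target genes of either direction.

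Genes whose levels ran most like those of a member were sought among 8395 genes over the 12 combinations of line and treatment, which share lines and DMSO libraries, so Pearson's r is a description. SHMT2 was most like NOP14 (0.990), RPL9 (0.964) and NOLC1 (0.958). PSAT1 was most like S100A6 (0.972), TMEM179B (0.961) and RANBP6 (0.953), and MTHFD2 like ANXA2 (0.956), SIN3B (0.954) and DMAC2 (0.952). PHGDH was most like H2BC14 (0.98), MRPL54 (0.971) and H2AX (0.963), of which H2BC14 belongs to a family of near-identical histone genes whose counts are uncertain. SHMT1 ran with CREB3 (0.959), DHX38 (0.948) and TTI1 (0.938), and ASNS with COL9A3 (0.943), USP11 (0.942) and TSR1 (0.940). MTHFD1 ran with RPL5 (0.927), AL109811.4 (0.918) and LSM1 (0.918), and PSPH with EIF5 (0.915), HCFC1 (0.915) and PHB1 (0.914). No member was among the leading genes of another. Between members the highest values were SHMT2 with ASNS (0.82) and MTHFD2 with PSAT1 (0.72), and the lowest was MTHFD2 with PSPH (-0.67).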

How the data were processed

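Ribosome footprint libraries were made by RNase I digestion, ribosome pelleting, linker ligation, depletion of ribosomal RNA and circularization, per the labels' protocols. The deposited counts are the authors' raw footprint counts per transcript, with an identifier and the codons counted. Per the submitters' processing notes, CASAVA 1.8, Bowtie2 2.1.0, TopHat2 2.0.9 and hg38 were used; the annotation release and the counter are not given in the sources used here.

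Of 93916 coding entries, 80153 (85.3%) were aligned in genome order to GENCODE 29 coding lengths less 10 codons. A gene was named where the odds against a chance match of its lengths were at least 100. The entry with the highest summed count stood for its gene, and reads repeat over a gene's entries. The members and lists were chosen with earlier results of these data known. Counts were fitted in edgeR 4.0.16 (R 4.3.3; TMM, filterByExpr with a minimum count of 10, robust quasi-likelihood, two-sided) with line and dose as terms. The lines under DMSO were fitted over the 8 DMSO libraries (12151 genes), and differences of response with a term for each line. DESeq2 1.42.0 was an alternative. The fit was tested on simulated data. Changes per line are log2 CPM with a prior count of 2. Named genes outside the set are per list, the called genes with the 3 highest and 3 lowest changes and at least 10 CPM on average. Likeness took the 3 genes with the highest r. Not all genes these rules name are reported here. Sequences were read from GENCODE 29 with Python 3.11.15.

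DMSO replicates are not stated to be separate cultures, so p-values may measure technical spread. Chi-square per degree of freedom between them was 1.49 to 2.47, where counting error alone gives about 1. No pairing by replicate number was found between lines (correlations of deviations -0.02 to 0.076).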

Additional observations from a re-analysis of the deposited data

Results flagged for a closer look

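MTHFD1 in Hs 936.T at 0.3 µM stood apart from the other lines. Its log2 change there was -0.44, from 151 CPM with RocA against 213 and 197 CPM in DMSO, while the other 3 lines lay between 0.27 and 0.32. The gap to the nearest line was 0.937 of the whole range, above Dixon's 95% critical value for 4 values. It was the single case among 16 sets of 4 lines checked. Chance flags about 1 in 20 sets, so a single case among 16 is about what chance gives. At 3 µM Hs 936.T stood at 0.17 for this gene, and the change at the start of the coding sequence at 0.3 µM was also lowest in this line (0.32, against 1.22 to 1.44 in the others). Footprints at the start are part of the same count, so that value is not separate support. The cause was not tested.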

How the results depend on the processing

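PHGDH, PSAT1, MTHFD2, ASNS and PSPH kept their direction and their call at both doses in all 27 alternatives. SHMT1, SHMT2 and MTHFD1 lost calls as given in the report. Scaling to library totals without TMM (chosen after the data were seen, like the 926-codon entry of MTHFD1) gave 1974 genes higher and 4127 lower at 0.3 µM and 1895 and 3895 at 3 µM, against 2688 and 3170, and 2455 and 3119, with TMM; the median of all genes was -0.344 and -0.374. Over the alternatives that left out a library or line, 1122 member values kept direction and call, 27 lost and 1 gained a call and 34 changed sign; over the others the numbers were 557, 19, 3 and 15.

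Counts of genes called moved as follows. Between doses 323 became 154 without the libraries labelled NCI-H521 and 49 (without Hs 936.T) to 371 with 1 library or line left out. Between lung and melanoma responses 66 became 100 with DESeq2, 43 without the NCI-H521 libraries and 33 to 148 with 1 left out. Over the 4 lines 279 became 158 to 464 with 1 left out. The numbers of DMSO replicates gave no pairing between lines. With a replicate block the counts were 7276 (lung against melanoma), 7115 (NCI-H1650 against NCI-H520), 7798 (Hs 936.T against A375), 8350 (NCI-H1650 against Hs 936.T), 7734 (NCI-H1650 against A375), 7115 (NCI-H520 against Hs 936.T) and 6801 (NCI-H520 against A375), and no member's call changed.

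These values changed sign. MTHFD1 at 0.3 µM (0.07) gave -0.0020 with DESeq2 size factors, -0.11 with no filter, -0.011 without the NCI-H521 libraries, -0.19 with no TMM, -0.21 by its 926-codon entry and -0.012 to 0.28 with 1 left out, and at 3 µM (0.35, called) -0.0097 by that entry. Between doses, ASNS gave 0.091 thinned, 0.011 with no TMM and -0.13 to 0.015 with 1 left out, SHMT2 -0.033 thinned and -0.037 to 0.071, and PSPH (-0.34) 0.19 without the NCI-H521 libraries and -0.77 to 0.40. Lung against melanoma under DMSO, MTHFD1 gave 0.020 with DESeq2 size factors and 0.021 with DESeq2, PHGDH -0.0041 and PSAT1 -0.00060 with no filter, and PSAT1 -0.023 to 0.098 with 1 left out. NCI-H1650 against NCI-H520, MTHFD2 gave -0.050 without the NCI-H521 libraries and -0.050 to 0.17. PSPH, NCI-H1650 against Hs 936.T, gave -0.0034 to 0.22 and SHMT1, NCI-H1650 against A375, -0.36 to 0.012. Lung less melanoma response with 1 left out ranged from -0.13 to 0.18 for MTHFD2, -0.88 to 0.11 for SHMT1, -0.031 to 0.088 for PHGDH, -0.064 to 0.29 for PSAT1 and -0.62 to 0.61 for PSPH. The cause was not tested.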
